A study of Rattus norvegicus with 90 samples.

Results

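The transcripts described here were present in both renal cells and cardiomyocytes and close to absent from hepatocytes. They were chosen on the deposited levels, in TPM, a relative level that is corrected for the length of the transcript and sums to the same total in every library. A transcript with an Ensembl rat identifier qualified if its mean was below 0.5 TPM in each of the 6 hepatocyte conditions, with hepatocyte library MS-183 left out. The transcripts were ranked by the lower of the vehicle means at 9 h in renal cells and in cardiomyocytes, and the first 150 with that lower mean of at least 1 TPM were taken. Of 40071 transcripts in the tables, 20469 were under the hepatocyte limit, 970 of those also reached the minimum, and 150 were members. The choice used 2 groups of vehicle libraries at 9 h and all hepatocyte groups, so the levels in these groups are given as a description and without a test.

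The cells were primary cells of Sprague-Dawley rats, in 90 libraries of 18 groups with 5 libraries each. Per the labels, all 3 cell types were cultured for a further 18 h and then exposed to vehicle or thioacetamide-S-oxide, for either 9 or 24 h. The study's methods give this step for hepatocytes and renal cells, after an attachment period, and the earlier culture of the cardiomyocytes is not given in the sources used here. Hepatocytes received 0, 0.025 or 0.125 mM, renal tube epithelial cells 0, 0.125 or 0.5 mM, and cardiomyocytes 0, 0.5 or 1.5 mM, here called vehicle, low and high dose. No group carried an engineered allele or a further agent. The vehicle was the cells' own maintenance medium, which the labels name EpiCM in renal cultures and MM250 in hepatocyte cultures. The study's methods name it EpiCM-a and CC-3198, and its name in cardiomyocyte cultures is not given in the sources used here. The hepatocytes and renal cells were purchased frozen, and no source used here says whether libraries of a group came from separate animals or cultures, so the p-values measure the spread among these libraries.

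Hepatocytes are the main metabolic cells of the liver, proximal tubular cells take up filtered solutes in the kidney, and cardiomyocytes are the contracting cells of the heart. Thioacetamide-S-oxide is a product of the oxidation of thioacetamide, a liver toxicant, and is itself oxidized further to a reactive form. A transcript is 1 processed RNA form of a gene, and a gene may have several, so a member here is a form and not a whole gene. No table used here paired the identifiers with gene symbols, sequences or positions (0 identifiers were matched), so the members could not be sorted by function and the cell types could not be checked against their marker genes. Members are therefore named by identifier, by the fixed rule given with the methods.

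The 60 renal and cardiomyocyte libraries held between 11415878 and 61897142 estimated counts, of which the members took 149645 to 1207463. Libraries MS-145 (renal, low dose, 24 h), MS-158 (cardiomyocytes, low dose, 9 h) and MS-172 (cardiomyocytes, low dose, 24 h) stood apart. Their 10 most abundant targets took 49.7%, 48.3% and 53.2% of all TPM, against 7.55% to 18.8% in the other 57 libraries. The members' TPM values were also low in these libraries, and the call counts of comparisons that use them are given with and without them. In bulk RNA, fewer cells of a type and less RNA per cell cannot be told apart.

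The first-ranked member, ENSRNOT00000020316, had 183.8, 178.5, 176.4, 176.8 and 181.6 TPM in the renal vehicle libraries at 9 h. In the cardiomyocyte vehicle libraries at 9 h it had 145.8, 137.2, 147.4, 137.3 and 150.3 TPM. In the 6 hepatocyte conditions its mean was between 0 and 0.222 TPM. The second, ENSRNOT00000008321, had mean levels of 140.3 ± 1.67 TPM in renal cells and 236.3 ± 8.91 TPM in cardiomyocytes (vehicle, 9 h, SD, n = 5), and the third, ENSRNOT00000009696, had 131.995 ± 2.97 and 284.3 ± 8.34 TPM. The leading members were thus at over 100 TPM in both cell types. The last member, ENSRNOT00000022097, had a lower mean of 11.1 TPM, and the first transcript left outside, ENSRNOT00000053636, had 10.8 TPM. All 150 members lay above 1 TPM in the mean of every renal and cardiomyocyte group, and all but 11 were at 1 TPM or more in each of the 60 libraries. These 11 members gave 27 values below 1 TPM.

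Most members were at the higher level in cardiomyocytes. At 9 h in vehicle, 93 members had the higher mean level in cardiomyocytes and 57 in renal cells. The ratio stayed within 2-fold for 88 members and exceeded 8-fold for 8. Between 9 and 24 h in vehicle, all but 9 members in each cell type stayed within 2-fold. In renal cells these 9 were lower at 24 h, and in cardiomyocytes 8 were higher and 1 was lower.

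In hepatocytes the members were near 0 by construction. Their summed level was between 10.1 and 28.8 TPM in the 29 libraries used, with group means from 11.0 ± 0.746 TPM in vehicle at 9 h to 25.3 ± 4.62 TPM at the high dose at 24 h (SD, n = 5 in each). The highest condition mean of a member was 0.494 TPM, 10 members reached 0.4 TPM or more, and 38 had 0.1 TPM or less in each condition. A single member was at 0 in all 29 libraries. Just outside the limit, among transcripts at least as abundant in both other cell types, the lowest highest-condition mean was 0.504 TPM, and 80 had less than 1 TPM. Library MS-183, a hepatocyte vehicle library at 24 h with 2993135 estimated counts, gave the members a sum of 773 TPM, with 92 members at 1 TPM or more. In that library 8.33% of the estimated counts fell on transcripts, against 84.1% to 94.3% in the other hepatocyte libraries. The members had 1752 estimated counts there, within the 426 to 2636 of the others.

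**Figure D1:**
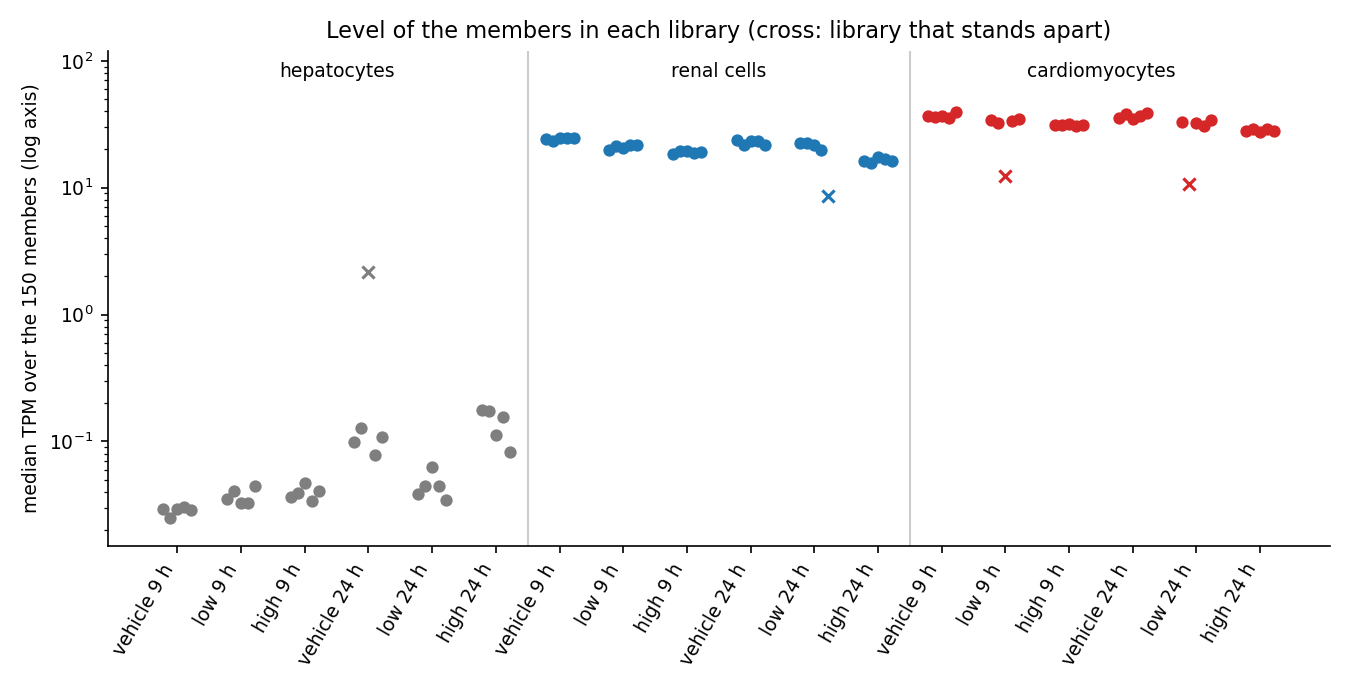
Median TPM over the 150 members (log axis) in each of the 90 libraries, by condition, 5 points a condition; crosses mark libraries MS-183, MS-145, MS-158 and MS-172. Renal and cardiomyocyte medians lie between 8.67 and 39.8 TPM, and renal high-dose cultures at 24 h, at 15.7 to 17.4 TPM, lie below every renal vehicle library.

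The members were longer than other transcripts. Their median length was 2680 bases (range 81 to 10069), against 2177 bases over the 17798 transcripts tested in the renal high-dose comparison and 1868 bases over 7040 transcripts that were as abundant in both cell types but at or over the hepatocyte limit. These 7040 transcripts serve below as the comparison set, and no test of the lengths was made. Estimated counts were whole (within 0.01) in all 60 libraries for 68 members (45.3%), close to the 46.7% of the comparison set. For the other 82 members reads were shared with another target and divided, so their values are less certain. Members ENSRNOT00000075048 and ENSRNOT00000073080, ranked 25 and 26, are both 81 bases long and had identical values in every library. They had at most 21.5 estimated counts in any library (median 6.25), so they carry 1 measurement of low depth. The other members had median counts of 106 or more.

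Of the exposures, the high dose (0.5 mM) in renal cells at 24 h moved the most members. The question was how transcripts shared by both cell types responded in libraries the choice had not used. The summed level of the members was 8101, 7543, 7856, 8072 and 7652 TPM in the vehicle libraries and 5280, 5209, 5217, 5347 and 5110 TPM at the high dose, so the groups did not overlap. The median level per library was 22.8 ± 1.05 TPM in vehicle and 16.5 ± 0.649 TPM at the high dose (SD, n = 5).

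Of the 150 members, all of which passed the filter on low counts, 86 were lower and 9 higher at the high dose. A transcript was called where edgeR's quasi-likelihood test gave a Benjamini-Hochberg adjusted p of at most 0.05 and the natural-log fold change was at least 0.41 in size, a fold of 1.51. Over all transcripts tested, 14.9% were called lower and 12% higher, and in the comparison set 10% and 7.92%. The members' shares were 57.3% lower and 6% higher. Their median log2 fold change was -0.70 (quartiles -1.35 and -0.22), against 0.02 over all transcripts tested and 0.01 in the comparison set. A decrease of at least 2-fold was called in 60 members and an increase of that size in 2, where 7.95% and 5.30% of all transcripts tested were. All 5 treated libraries lay below all 5 vehicle libraries for 68.7% of the members and above them for 8.67%, where 21.0% and 20.7% of all transcripts did so. The members called lower were spread over the ranks, with 33 in the first 50, 24 in the next 50 and 29 in the last 50, and were 36 of the 68 with whole counts and 50 of the 82 with divided counts. The identical pair of short members, 1 measurement, was counted as 2 of the 86. It passed the filter on low counts only in comparisons with the renal vehicle libraries at 24 h, so its call is not taken as support. The other 84 members called lower do not depend on it.

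ENSRNOT00000076995, 1365 bases long, fell the most. It had 27.8, 23.3, 27.7, 25.7 and 23.9 TPM in the renal vehicle libraries at 24 h. At the high dose it had 2.65, 2.63, 2.59, 2.76 and 2.66 TPM. The lowest vehicle library was far above every treated one, and the log2 fold change was -3.34 (SE 0.06, adjusted p = 1.2e-10 by edgeR). Its vehicle level had been 14.0 ± 0.510 TPM at 9 h (SD, n = 5), so the 24 h decrease was measured against a higher vehicle level than at 9 h.

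ENSRNOT00000025983, ranked 91 and 2893 bases long, rose the most. It had 20.7, 16.7, 18.5, 20.6 and 17.5 TPM in vehicle at 24 h and 57.6, 49.97, 55.0, 54.6 and 57.6 TPM at the high dose. The groups did not overlap, with a log2 fold change of 1.49 (SE 0.05, adjusted p = 2.7e-09 by edgeR). Counts of both transcripts were divided among targets in some libraries. Of the leading members, ENSRNOT00000020316 was called higher (187.9 ± 20.6 against 311.1 ± 38.1 TPM, log2 fold change 0.66, SE 0.12) and ENSRNOT00000008321 lower (140.6 ± 5.97 against 76.4 ± 1.69 TPM, log2 fold change -0.94, SE 0.03, SD over 5 libraries each). Without high-dose library MS-147 the former was 0.57 and was no longer called.

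At the low dose (0.125 mM) in renal cells at 24 h, edgeR called 0 members, where 0.0452% of all transcripts were called higher and 0.017% lower. The unadjusted p was under 0.05 for 22 members (14.7%), where it was for 6.33% of all transcripts tested. DESeq2 called 1 member, and a single fit of all groups called 2. Without library MS-145, 1 member was called. The shares over all transcripts under these alternatives are not given, so nothing particular to the members is read from these counts. The summed level was 6611 ± 1715 TPM with that library (SD, n = 5) and 7362 ± 400 TPM without it (n = 4), against 7845 ± 248 TPM in vehicle (n = 5).

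**Figure D2:**
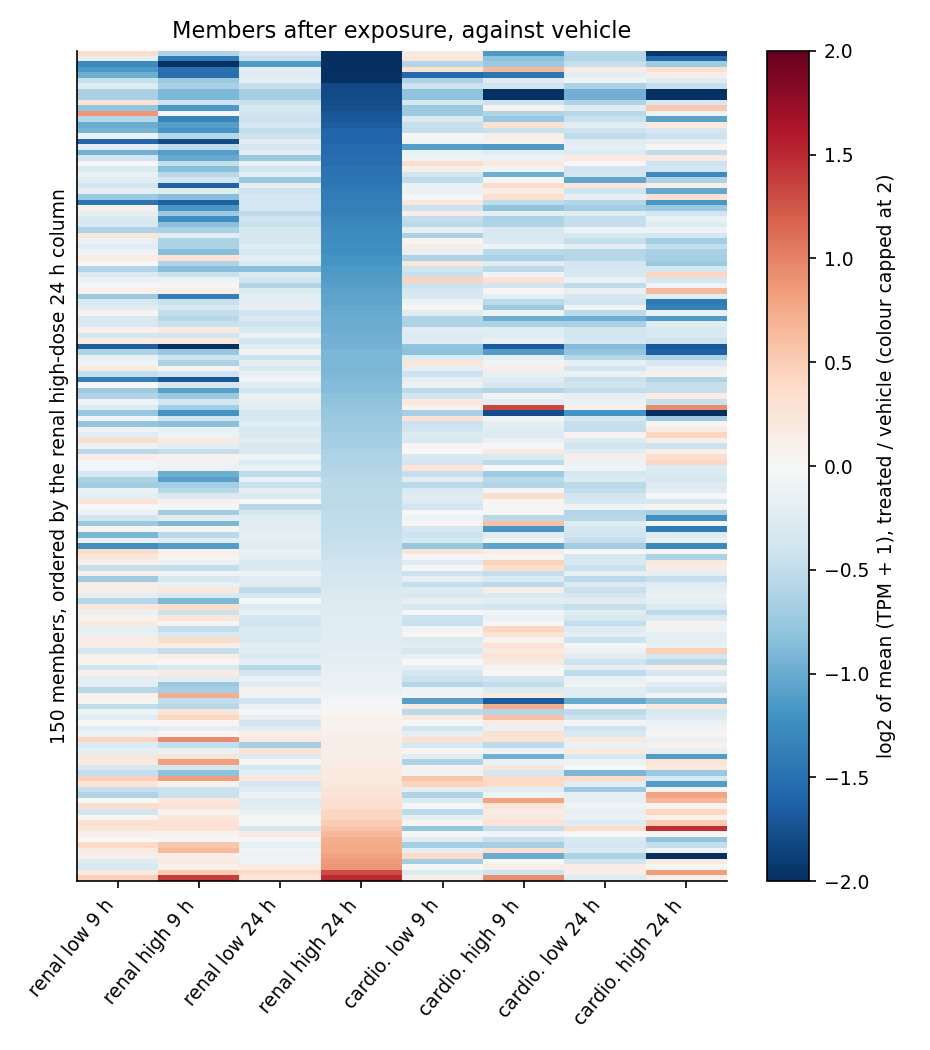
Log2 ratio of mean (TPM + 1), treated to vehicle of the same cell type and time, for the 150 members (lines, ordered by the renal high-dose 24 h column) in 8 exposures (columns); blue is lower and red higher, and all libraries are included. The low-dose means include libraries MS-145 (renal, 24 h), MS-158 (cardiomyocytes, 9 h) and MS-172 (cardiomyocytes, 24 h), where member TPM was low. This makes those columns bluer. Most lines are blue in renal cells at the high dose at 24 h, where 120 of 150 members had an edgeR log2 fold change below 0.

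In cardiomyocytes at 24 h the high dose was 1.5 mM. The summed level of the members was 9795, 9718, 9593, 9346 and 9940 TPM in vehicle and 7474, 7456, 7569, 7543 and 7573 TPM at the high dose, again without overlap. The identical pair of short members did not pass the filter, and all others were tested. Of these, 25 were lower and 8 higher by edgeR. Over all transcripts tested, 6.39% were called lower and 6.01% higher, and in the comparison set 2.34% and 4.23%. The members' shares were 16.7% and 5.33% of 150. Their median log2 fold change was -0.11, against 0.00 over all transcripts (0.02 in the comparison set), and 15 members were called at least 2-fold lower and 1 at least 2-fold higher, where 3.31% and 3.13% of all transcripts tested were.

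ENSRNOT00000068216, 890 bases long, fell the most there. It had 157.4, 140.8, 109.5, 162.5 and 164.6 TPM in the vehicle libraries and 27.6, 26.3, 32.7, 21.1 and 23.0 TPM at the high dose. The groups lay far apart, with a log2 fold change of -2.36 (SE 0.14, adjusted p = 4.5e-07 by edgeR). In vehicle at 9 h it had 45.4 ± 0.713 TPM (SD, n = 5).

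ENSRNOT00000073595, ranked 53 and 1305 bases long with whole counts, had the largest increase among the members called. It had 22.1, 21.1, 19.7, 20.9 and 22.6 TPM in vehicle and 35.1, 36.9, 44.1, 48.9 and 45.9 TPM at the high dose. Every treated library was above every vehicle library, with a log2 fold change of 1.12 (SE 0.08, adjusted p = 2.1e-06 by edgeR). A larger value was fitted for ENSRNOT00000028131 (1.70, SE 0.63), which was not called (adjusted p = 0.063 by edgeR). In renal cells ENSRNOT00000073595 was called lower at the high dose (44.5 ± 1.61 against 25.4 ± 1.81 TPM, log2 fold change -0.87, SE 0.05, adjusted p = 1.6e-07 by edgeR).

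At the low dose (0.5 mM) in cardiomyocytes at 24 h, edgeR called 0 members, and 0.00% of all transcripts were called in either direction. The unadjusted p was under 0.05 for 27 members (18%), where it was for 11.9% of all transcripts tested. DESeq2 and a single fit of all groups called 2 each. Without library MS-172 edgeR again called 0 members, and without library MS-174 it called 5. Shares over all transcripts under these alternatives are not given, so nothing particular to the members is read from these counts. The summed level was 7536 ± 2194 TPM with library MS-172 (SD, n = 5) and 8515 ± 180.5 TPM without it (n = 4), against 9678 ± 225 TPM in vehicle (n = 5).

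**Figure D3:**
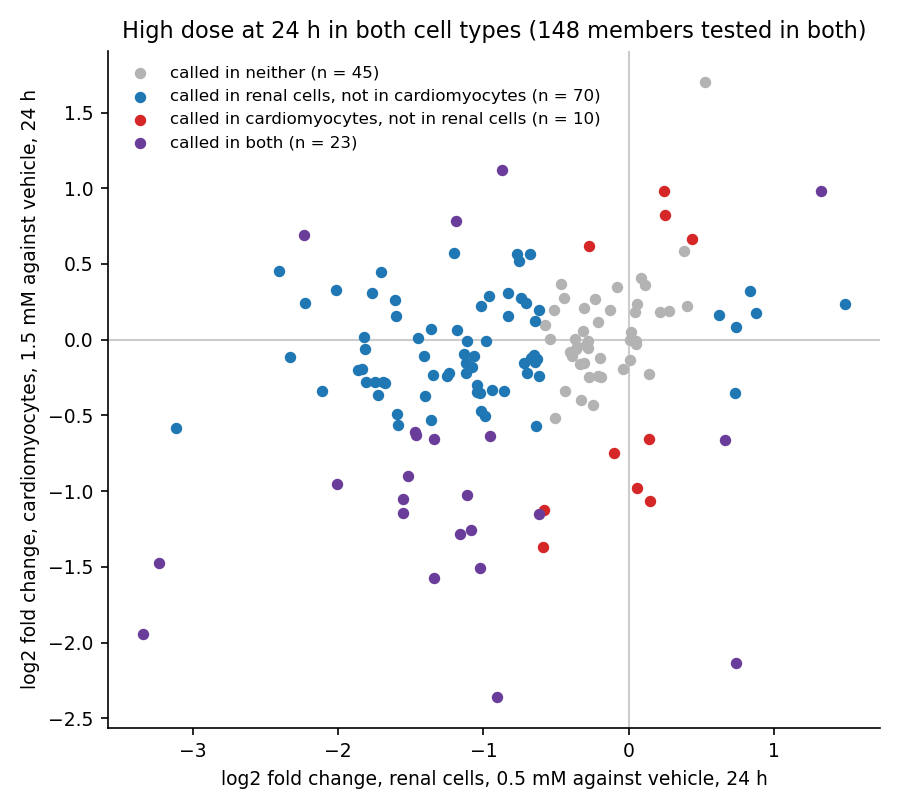
Log2 fold change of each of the members tested in both cell types, renal cells at 0.5 mM (horizontal axis) and cardiomyocytes at 1.5 mM (vertical axis), each against its vehicle at 24 h, coloured by where it was called. The points called in renal cells lie mostly left of 0, down to -3.34, while cardiomyocyte values lie between -2.36 and 1.70.

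The high-dose comparisons of the 2 cell types at 24 h share no library, but their doses differ, so the counts stand side by side. Of the members, 17 were called lower in both, which is 19.8% of the 86 lower in renal cells and 68% of the 25 lower in cardiomyocytes. Over all transcripts, 395 were lower in both, or 14.9% and 35.7% of the respective lists. These shares stand beside the 57.3% of members and 14.9% of all transcripts that were lower in renal cells, and the 16.7% and 6.39% that were lower in cardiomyocytes. Of the 9 members higher in renal cells, 1 was also higher in cardiomyocytes and 2 were lower there, against 14.6% and 3.50% of all transcripts higher in renal cells. Of the 86 lower in renal cells, 3 were higher in cardiomyocytes (3.49%, against 4.87% of all transcripts). The 84 of these 86 members that were tested in cardiomyocytes had a median log2 fold change of -0.21 there, close to the -0.19 of the 2258 tested there among all 2650 transcripts lower in renal cells. ENSRNOT00000076995 was among those lower in both, at 29.9 ± 1.98 TPM in cardiomyocyte vehicle and 7.01 ± 0.963 TPM at the high dose (SD, n = 5). ENSRNOT00000020316 moved in opposite directions, being called lower in cardiomyocytes with a log2 fold change of -0.66 (SE 0.07).

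The renal high dose and the cardiomyocyte low dose were the same concentration, 0.5 mM. The difference between the responses at 24 h was tested as an interaction over the 20 libraries. By edgeR, 70 members had a lower and 7 a higher response in renal cells than in cardiomyocytes. Over all transcripts tested 9.78% were called lower and 7.35% higher, and in the comparison set 8.58% and 7.23%. The members' median interaction was -0.70 on the log2 scale, against 0.02 over all transcripts. Leaving out library MS-172 gave 78 lower and 8 higher, 86 called members in place of 77. The shares over all transcripts without that library are not given, so nothing particular to the members is read from the rise.

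The largest interactions belonged to the transcripts that moved most in renal cells. ENSRNOT00000076995 had an interaction of -3.01 (SE 0.16, adjusted p = 1.6e-10 by edgeR), and of -3.11 without library MS-172. In cardiomyocytes at 0.5 mM it had 24.3, 6.05, 22.002, 24.3 and 22.7 TPM, the low value being that of library MS-172, and its change from vehicle was not called (log2 fold change -0.30, SE 0.13, and -0.20 without that library). ENSRNOT00000025983 had an interaction of 1.44 (SE 0.11, adjusted p = 1e-08 by edgeR). Its cardiomyocyte change at 0.5 mM was 0.08 on the log2 scale (SE 0.09), also not called.

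At 9 h each comparison with vehicle used the vehicle libraries that had chosen the members, so its counts are descriptions that are not independent of the choice. In renal cells at the high dose 50 members were lower and 6 higher, where 10.9% and 8.16% of all transcripts were, and the summed level was 6312 ± 70.5 TPM against 7478 ± 60.96 TPM in vehicle (SD, n = 5). At the low dose 27 were lower and 1 higher, where 4.41% and 2.28% of all transcripts were. In cardiomyocytes 34 were lower and 5 higher at the high dose, where 6.41% and 6.22% of all transcripts were. At the low dose 5 were lower and 1 higher, where 1.14% and 1.28% of all transcripts were, and without library MS-158 the number called was 10 in place of 6. The share over all transcripts without library MS-158 is not given, so nothing particular to the members is read from that rise.

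The high and low doses at 9 h were also compared directly, in libraries the choice had not used. In renal cells, 19 members were lower and 4 higher at 0.5 mM than at 0.125 mM by edgeR, where 6.52% and 6.23% of all transcripts were, with shares of 12.7% and 2.67% among the members. In cardiomyocytes, 20 members were lower and 4 higher at 1.5 mM than at 0.5 mM, where 4.43% and 3.26% of all transcripts were, with member shares of 13.3% and 2.67%. Without library MS-158 these numbers of members were again 20 and 4. The median log2 fold changes were -0.15 and -0.17, against 0.00 and -0.01 over all transcripts. ENSRNOT00000025983 was higher at the higher dose in both cell types, by 0.91 (SE 0.04) in renal cells and 0.61 (SE 0.05) in cardiomyocytes on the log2 scale. The cardiomyocyte value was 0.585 without low-dose library MS-156, just under the threshold of 0.59. ENSRNOT00000076995 was lower in both, with log2 fold changes of -1.06 (SE 0.10) and -1.68 (SE 0.15).

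**Figure D4:**
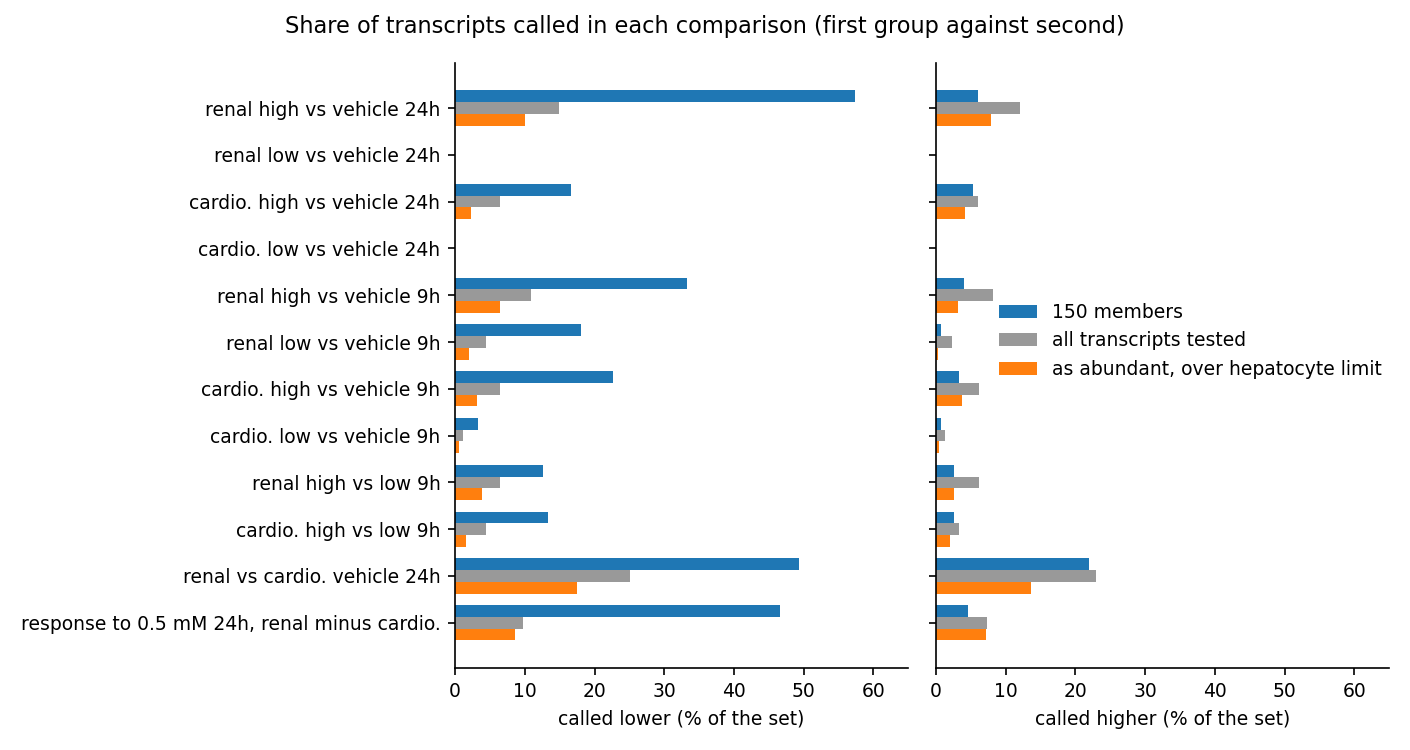
Percentage called lower (left) and higher (right) in each of 12 comparisons, for the 150 members (blue), all transcripts tested (grey) and transcripts as abundant in both cell types but at or over the hepatocyte limit (orange). For lower calls the blue bar is the longest in the 6 comparisons with member calls that used no vehicle library at 9 h, up to 57.3% in renal cells at the high dose at 24 h; the 4 comparisons with vehicle at 9 h used libraries that chose the members and are drawn as a description.

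The 9 h and 24 h comparisons of a cell type share no library, so their lists were set side by side. Of the 19 members lower at the high than at the low dose in renal cells at 9 h, 17 (89.5%) were also lower than vehicle at 24 h, against 71.9% of the 1150 transcripts lower at 9 h among all tested. In cardiomyocytes these figures were 17 of 20 members (85%) and 59.8% of 815 transcripts, and 18 of 20 members (90%) without library MS-158. The shares lower at 24 h were themselves higher among the members, 57.3% against 14.9% of all transcripts tested in renal cells and 16.7% against 6.39% in cardiomyocytes, so nothing particular to the members is read from these overlaps. The lists called against vehicle at 9 h rest on libraries that chose the members, so their values are a description, and nothing is read from how they differ from all transcripts. Of the 50 members lower than vehicle at the high dose in renal cells at 9 h, 45 were lower at 24 h, and their median log2 fold change was -0.93 at 9 h and -1.38 at 24 h. Of the 1949 transcripts lower at 9 h among all tested, 57.8% were lower at 24 h, with a median of -0.94 at 9 h and of -0.84 over the 1861 tested at 24 h. At the low dose in renal cells, the 27 members lower at 9 h had a median log2 fold change of -0.81 at 9 h and of -0.13 at 24 h, with 21 of them (77.8%) below 0 and 0 called. Without library MS-145 the 24 h median was -0.07, with 21 below 0. The 774 transcripts lower at 9 h among all tested had a median of -0.93 at 9 h. The 728 of them tested at 24 h had a median of -0.10 there, with 63.2% below 0 and 2 called. Whether the 9 h and 24 h responses differed was not tested.

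Between the vehicle cultures at 24 h, most members differed between the cell types although all were present in both. By edgeR, 74 were lower and 33 higher in renal cells than in cardiomyocytes, where 25.1% and 23.0% of all transcripts were. In the comparison set the shares were 17.5% and 13.6%. The members' median log2 fold change was -0.57, against -0.01 over all transcripts. The medium differed or was not stated between the cell types, so medium and cell type cannot be told apart. None of these libraries had been used to choose the members, though the 9 h levels of the same cell types had been.

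ENSRNOT00000082257, 4243 bases long, was the member furthest toward renal cells. It had 168.6, 187.3, 166.6, 172.7 and 189.3 TPM in the renal vehicle libraries at 24 h and 9.77, 13.1, 12.7, 9.27 and 10.9 TPM in the cardiomyocyte ones. The log2 fold change was 3.96 (SE 0.11, adjusted p = 5.6e-11 by edgeR), and the transcript was not called in any exposure of either cell type.

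ENSRNOT00000023488, 3081 bases long, was furthest toward cardiomyocytes. It had 5.08, 4.36, 3.79, 5.01 and 3.95 TPM in renal vehicle libraries at 24 h and 189.3, 189.6, 175.004, 171.7 and 196.6 TPM in cardiomyocyte ones. The log2 fold change was -5.41 (SE 0.08, adjusted p = 3.5e-13 by edgeR). In renal vehicle cultures it had 15.3 ± 0.547 TPM at 9 h, and in cardiomyocyte ones 88.2 ± 3.29 TPM (SD, n = 5), so the gap between the cell types was wider at 24 h than at 9 h. The change of that gap was not tested.

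**Figure D5:**
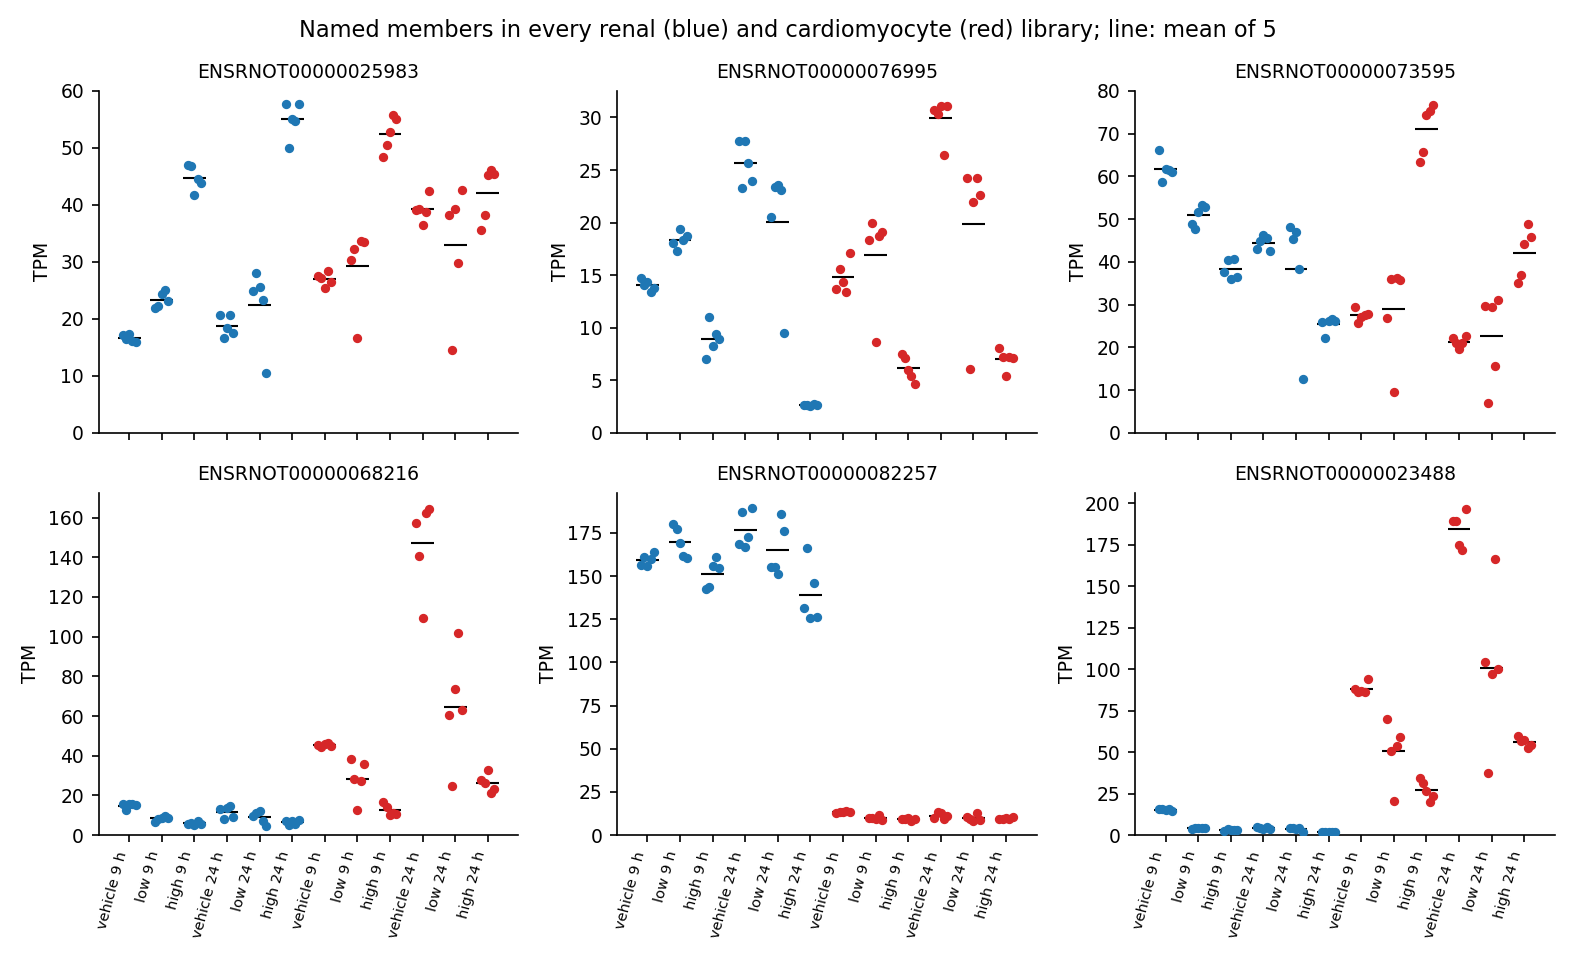
TPM of the 6 members named from the tests in each renal (blue) and cardiomyocyte (red) library, 5 points a condition, with the mean as a line; axes start at 0. ENSRNOT00000076995 lies at 2.59 to 2.76 TPM in renal cells at the high dose at 24 h, and the low point in both low-dose 24 h groups is library MS-145 or MS-172 for most of these members.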

How the data were processed

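The authors deposited 1 table per library with the estimated count and the TPM of each target, made with Kallisto 0.42.4 per the labels from poly-A-enriched paired reads and the Rnor_6.0 transcriptome. Estimated counts need not be whole, since reads fitting several targets are divided. The tables list 40071 transcripts and 25095 genomic intervals, and the intervals were not members. Here estimated counts were rounded, and groups were compared over all transcripts with edgeR 4.0.16 under R 4.3.3 (filterByExpr, TMM, quasi-likelihood F test) and Benjamini-Hochberg adjustment. The SE was the log2 fold change divided by the square root of F. TPM values are used as deposited. Alternatives used DESeq2 1.42.0, limma 3.58.1 on log2(CPM + 0.5), other filters, thresholds and size factors, and each library left out. The edgeR function was tested on simulated data.

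Groups came from the sample labels. Transcripts named are ranks 1 to 3, 150 and 151, the called member with the largest increase and decrease in each cell type at the high dose at 24 h among those with groups that do not overlap, the largest interactions, and the largest differences between vehicle groups. The pair with identical values and ENSRNOT00000028131 were named after their values were seen. The members and lists were chosen with earlier results of these data known. Counting error was not measured separately, and members outside the identical pair had median counts of 106 or more.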

Additional observations from a re-analysis of the deposited data

Results flagged for a closer look

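A library was noted where its gap to the nearest other library of its group was wide against the group's range, at a level that chance reaches in about 1 of 20 groups. Over the summed level, the median level and the levels of the named members, 21 such gaps were noted, where chance would give 5.65. Library MS-172 (cardiomyocytes, low dose, 24 h) had a summed member level of 3620 TPM against 8246 to 8625 TPM in the others, and a median of 10.7 TPM against 30.9 to 34.1. Library MS-158 (cardiomyocytes, low dose, 9 h) had 3799 TPM against 8034 to 8265 TPM, and a median of 12.4 TPM against 32.4 to 34.5. Library MS-145 (renal cells, low dose, 24 h) had 3606 TPM against 6784 to 7699 TPM, and a median of 8.67 TPM against 19.8 to 22.6. These 3 libraries also had the fewest estimated counts of their groups, with 11519925, 17494079 and 15078809 against at least 19551242, 40864839 and 30860544 in the others, and the part of depth in the levels was not tested.

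Gaps were also noted in other groups and for single members. Library MS-155 had the highest median of the cardiomyocyte vehicle group at 9 h, 39.8 TPM against 35.2 to 36.4. Library MS-126 had the lowest sum of the renal low-dose group at 9 h, 6660 TPM against 6870 to 6927. Library MS-122 was lowest in the renal vehicle group at 9 h, with a sum of 7373 TPM against 7484 to 7525 and a median of 23.5 TPM against 24.4 to 24.7. ENSRNOT00000076995 had 6.05 TPM in library MS-172 against 22.002 to 24.3 in its group, and 26.4 TPM in cardiomyocyte vehicle library MS-169 against 30.3 to 31.1.

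Single named members gave the other 9 gaps noted. Library MS-158 was low for ENSRNOT00000076995 (8.62 TPM against 18.3 to 19.9), ENSRNOT00000025983 (16.6 TPM against 30.3 to 33.7) and ENSRNOT00000022097 (9.34 TPM against 13.3 to 14.6), and library MS-172 for ENSRNOT00000008321 (89.1 TPM against 230.9 to 241.3). ENSRNOT00000020316 was high in cardiomyocyte libraries at 24 h, with 140.2 TPM in high-dose library MS-179 against 118.006 to 121.6 and 242.6 TPM in vehicle library MS-168 against 204.1 to 211.4. ENSRNOT00000073595 had 22.2 TPM in renal high-dose library MS-147 at 24 h against 25.95 to 26.7. At 9 h in vehicle, ENSRNOT00000068216 had 12.6 TPM in renal library MS-122 against 15.1 to 15.6, and ENSRNOT00000023488 had 93.9 TPM in cardiomyocyte library MS-155 against 85.99 to 88.04.

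The response to 0.5 mM at 24 h was called different between renal cells and cardiomyocytes for 77 members. Hepatocyte library MS-183, which the choice of members left out, had a summed member level of 773 TPM against 10.1 to 28.8 TPM in the other hepatocyte libraries, with 1752 estimated counts on the members against 426 to 2636.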

How the results depend on the processing

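The largest increases, decreases, interactions and cell-type differences named above kept their direction and their call under each alternative run. For the other calls of named transcripts no direction changed. Some near the threshold were lost, among them that of ENSRNOT00000020316 in renal cells at the high dose at 24 h without MS-147 and those under 2-fold when 2-fold was required. The number of members called moved by over 1.5 times in 19 recomputations that left out no library and in 3 that left out 1, all given here as percentages of the 150 members.

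With a fold of at least 2 required, 41.3% were called in renal cells and 10.7% in cardiomyocytes at the high dose at 24 h. Of all transcripts tested, 7.95% were then called lower and 5.30% higher in renal cells, and 3.31% and 3.13% in cardiomyocytes. At 9 h these shares were 15.3% and 5.33% in renal cells (high and low dose), 9.33% and 1.33% in cardiomyocytes, and 3.33% and 6% between the doses in renal cells and cardiomyocytes. With no fold required, 56.7% were called in cardiomyocytes at the high dose at 24 h. At 9 h the shares were then 84% and 69.3% in renal cells, 79.3% and 14.7% in cardiomyocytes, and 59.3% and 28.7% between the doses. At the low dose at 24 h, DESeq2 called 0.667% in renal cells and 1.33% in cardiomyocytes, and all groups in one fit called 1.33% in each. For these other settings the shares over all transcripts are not given, so nothing particular to the members is read from them.

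Leaving out 1 library at a time gave 62% to 65.3% in renal cells at the high dose at 24 h, 21.3% to 26% in cardiomyocytes, and 50% to 57.3% for the interaction. For the low dose at 24 h it gave 0% to 0.667% in renal cells (the latter without MS-145) and 0% to 3.33% in cardiomyocytes (the latter without MS-174). For the cardiomyocyte low dose at 9 h it gave 3.33% to 6.67%, the latter without MS-158. The cause of these changes was not tested. Shares over all transcripts with a library left out are not given, so nothing particular to the members is read from these ranges.

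With a hepatocyte limit of 0.1 TPM, 38 of the 150 members remained, and with library MS-183 kept 75 remained. With medians in place of means 92.7% remained, and with the ranking on vehicle at 24 h 85.3%. The counts called over the first 3 of these lists, added after the data were seen, stayed within 1.5 times in renal cells and cardiomyocytes at the high dose at 24 h and for the interaction. They were not computed over the fourth, since the same vehicle libraries would then have chosen it. No paired analysis was possible because the library numbers in the labels are not shared between groups.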
